A study of Danio rerio with 24 samples.

Results

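The untreated WT livers were 4 RNA-Seq libraries, each prepared from 40 livers of 7 dpf zebrafish larvae that were dissected and pooled before extraction. They were taken by their labels and are all 4 WT libraries of a count table of 18 libraries, in a series of 24. The WT larvae were of the AB strain and received no treatment, and 3 other groups of 7 dpf pools of 40 livers were sequenced beside them. Overfed WT larvae (4 libraries) had received 6 times the usual amount of food from day 5 to day 7, WT larvae exposed to 2% ethanol for 32 hours formed the EtOH group (4 libraries), and *mtm* larvae (6 libraries, 3 of them labelled as resubmitted) carried a loss of function in *mtm1*, which encodes a phosphoinositide phosphatase. The question addressed here was which transcripts make up the liver of an untreated larva, and how far 4 pools of the same kind differ from one another. The age is that of the labels and the methods, and the results text of the study gives a different one. Nothing in the labels says that the 4 WT pools came from separate clutches or days, so the SDs below measure only the spread between these pools, which may be technical. The p-values below rest on a spread estimated over all 18 libraries, and the WT pools enter them with the same limit.

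Most cells of the liver are hepatocytes, secretory cells that supply the blood with apolipoproteins, clotting factors, complement and carrier proteins. Hepatocytes also store and release glucose, break down amino acids, make cholesterol and bile acids, and detoxify foreign compounds. In zebrafish the liver is formed and working by this age, when the yolk has been nearly used up and larvae begin to feed, and it lies against the pancreas and the gut. In adult females the fish liver also makes vitellogenins, the yolk precursors.

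Levels are given as CPM, the share of a gene in all counts of its library (10000 CPM is 1%), with the values of the 4 pools in the order pool 1, pool 2, pool 3 and pool 4. A CPM is not corrected for transcript length, so a higher CPM of 1 gene than of another is a larger share of the counts and not a larger number of molecules. Total counts were 15155430, 9297847, 17717723 and 15243381 in the 4 pools, so that 1 CPM stood for between 9.30 and 17.7 counts. Of 19793 genes in the table, 13720 had a count in every WT pool and 1934 in none. Levels of *mtm1* were 2.54 to 6.10 CPM in the WT libraries and 0.163 to 3.22 CPM in the *mtm* libraries, so the 2 sets of libraries overlapped.

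The label of liver was checked against hepatocyte markers. Of 14 markers, 9 were in the table, and 8 of these had a count in every pool. *fabp10a*, the liver fatty acid binding protein, was at 12299.6, 11660.1, 12009 and 9981 CPM. *serpina1*, an alpha-1-antitrypsin gene, was at 4325, 4439, 4522 and 3715 CPM, and *ttr*, the thyroid hormone carrier transthyretin, was at 514, 199, 384 and 477 CPM. The vitamin D carrier *gc* was at 666, 666, 887 and 1267 CPM, and *ambp*, the precursor of alpha-1-microglobulin, was at 1317, 1141, 1743 and 1552 CPM. By mean level these genes ranked between 10 and 294 among all genes. *hnf4a*, a transcription factor that defines hepatocytes, had no count in any of the 18 libraries, which at 3 counts allows up to 0.198, 0.323, 0.169 and 0.197 CPM in the WT pools. Its paralog *hnf4g* was at 19.4, 28.3, 26.8 and 25.5 CPM. Why *hnf4a* was at 0 was not tested. The other 5 markers, *tfa*, *fga*, *fgb*, *cp* and *hpxa*, were not in the table under these symbols, so their levels are not known. Ranks and class shares below cover only the genes that the table lists.

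Pool 4 stood apart from the others. Across the 5583 genes that averaged 10 CPM or more over the WT pools, the correlation of log2(CPM + 1) was 0.91 between pools 1 and 2, 0.95 between pools 1 and 3, and 0.88 between pools 2 and 3. With pool 4 it was 0.82, 0.84 and 0.86 for pools 1, 2 and 3. These correlations run across genes, which are not independent replicates. Pool 4 also had the largest summed level of exocrine pancreas genes and the largest share of mitochondrially encoded transcripts, both described below. Where pool 4 decides a class share, a count of calls or the spread of a class below, the value without it is also given.

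A small number of genes held most of the counts. The 2 leading genes, *apoa1b* and *apoa2*, took 25.8, 19.4, 25 and 19.8% of all counts in the 4 pools. The 10 genes with the highest mean took 36.3, 32.3, 40.3 and 41.2% (37.5% ± 4.09, SD, n = 4), and the 100 highest took 56.2, 55.2, 61.9 and 65.6% (59.7% ± 4.90, SD, n = 4). Counted within each pool, 46, 58, 28 and 22 genes were enough to reach 50% of the counts. Pools 3 and 4 were thus more concentrated than pools 1 and 2. Only 10 genes had a mean of 10000 CPM or more, and 92 lay between 1000 and 10000 CPM. At the other end, 7962 genes under 1 CPM together held 0.180% of the counts.

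**Figure D1:**
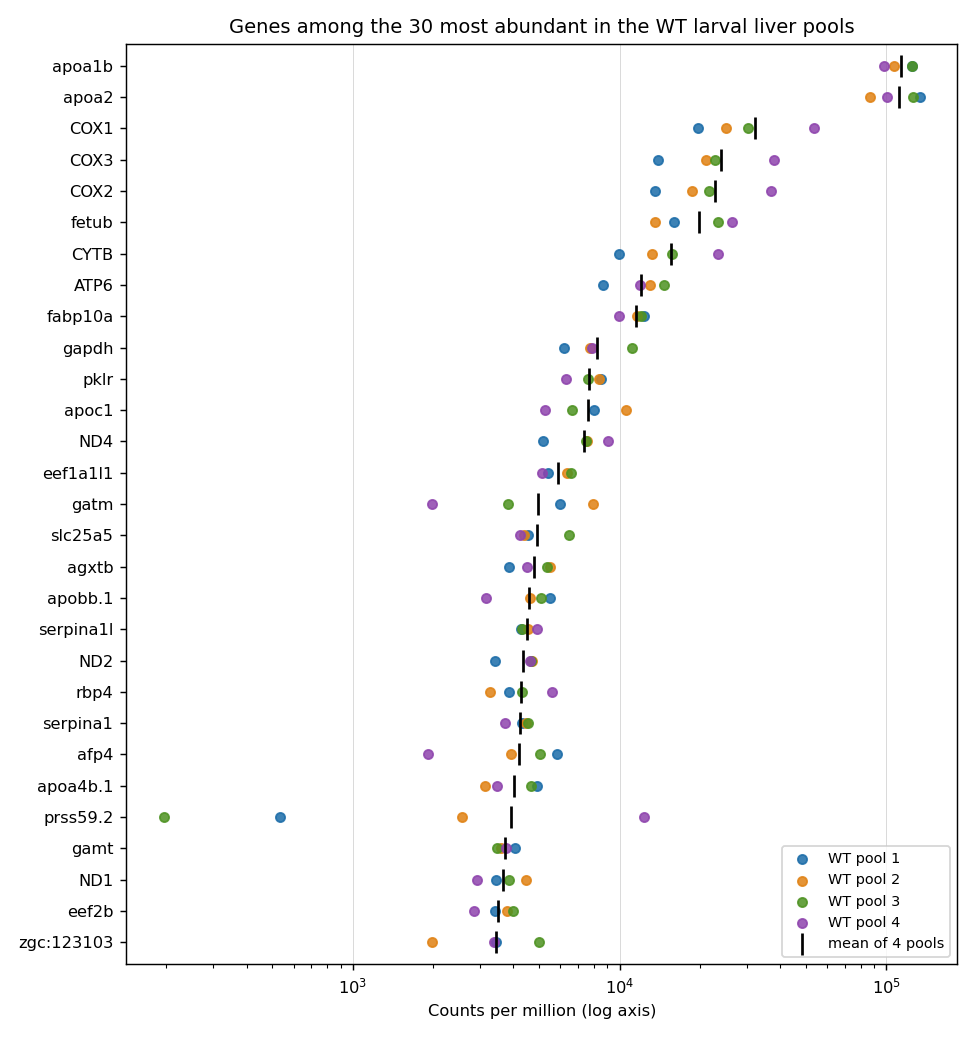
CPM (log axis) of genes among the 30 with the highest mean over the WT pools, with 1 point for each pool and a black bar for the mean of 4 pools. *apoa1b* and *apoa2* lie far above the other genes in every pool, while *prss59.2*, a trypsin of the exocrine pancreas, runs from 196 CPM in pool 3 to 12370.4 CPM in pool 4.

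The most abundant transcript was *apoa1b*, which encodes apolipoprotein A-I, the main protein of high-density lipoprotein. Its level was 125191, 107095, 124502 and 97863 CPM (113663 ± 13456, SD, n = 4). *apoa2*, which encodes another protein of the same particle, was at 133221, 86736, 125358 and 100492 CPM (111452 ± 21589). *apoa2* was the higher of the pair in pools 1, 3 and 4 and the lower in pool 2, so the order of the 2 genes is not fixed over the pools. The next in rank that is encoded in the nucleus was *fetub*, a fetuin and secreted protease inhibitor, at 15986, 13529.6, 23432 and 26391 CPM. *fetub* was higher in pools 3 and 4 than in pools 1 and 2.

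Mitochondrially encoded transcripts filled 5 of the 10 leading places. *COX1*, a subunit of cytochrome c oxidase, was at 19624, 25113, 30344 and 53692 CPM, and *COX3* and *COX2* of the same enzyme were at 13902, 21146, 22825 and 38001 CPM and 13529.5, 18696, 21582 and 36988 CPM. All 3 were lowest in pool 1 and highest in pool 4. *CYTB* of complex III was at 9942, 13232, 15723 and 23473 CPM, in the same order, whereas *ATP6* of the ATP synthase was highest in pool 3, at 8663, 12973, 14647 and 11964 CPM. *ND2*, a subunit of complex I, was at 3418, 4687, 4650.3 and 4603 CPM, lower in pool 1 than in the other 3 pools, which lay close together.

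The other leading genes were those of hepatocyte metabolism. *pklr*, the liver pyruvate kinase, was at 8488, 8378, 7581 and 6281 CPM. *gapdh*, the glycolytic glyceraldehyde phosphate dehydrogenase, was at 6165, 7777, 11115 and 7867 CPM. The level of *fabp10a* varied little, with an SD of log2(CPM + 1) of 0.14. *gatm* and *gamt* encode the successive enzymes of creatine synthesis. *gatm* was at 5965, 7961, 3829 and 1976 CPM and *gamt* at 4048, 3583, 3472 and 3758 CPM, so the level of the former varied 4.03 times between pools and that of the latter 1.17 times. *agxtb*, an alanine-glyoxylate aminotransferase, was at 3859, 5489, 5345 and 4494 CPM.

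Among the 50 most abundant genes, 10 were mitochondrially encoded, 7 were apolipoproteins or lipid transport proteins, 7 were carriers, protease inhibitors or acute phase proteins, and 6 were exocrine pancreas genes. Of the 50, 35 also ranked among the first 50 in every single pool, and 70 genes did so in at least 1. *zgc:158463*, which RefSeq annotates as ribosomal RNA, was at 1534, 6802, 1913 and 1897 CPM, highest in pool 2. The uncharacterised *zgc:123103* was at 3439.8, 1982, 4989.6 and 3372 CPM.

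Genes were grouped into 36 lists by function or cell type, which held 1583 genes and left 24.6% of the WT counts on no list. Genes of secreted plasma proteins took 35.6, 29.1, 35.9 and 30.6% of the counts (32.8% ± 3.43, SD, n = 4). Metabolic enzymes and transporters took 14.6, 14.2, 14.6 and 11.7% (13.8% ± 1.41), and the machinery of translation, respiration, protein folding and the cytoskeleton took 21.3, 25.3, 25.9 and 28.2% (25.2% ± 2.86). Secreted proteins were thus the largest of the 3 in every pool, and the gap was smallest in pool 4. Without *apoa1b* in the total, the secreted share was 24.2% on average. That is below the 25.2% of machinery in the full total, which can only rise without *apoa1b*. The first place of secreted proteins on average therefore depended on this 1 gene.

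**Figure D2:**
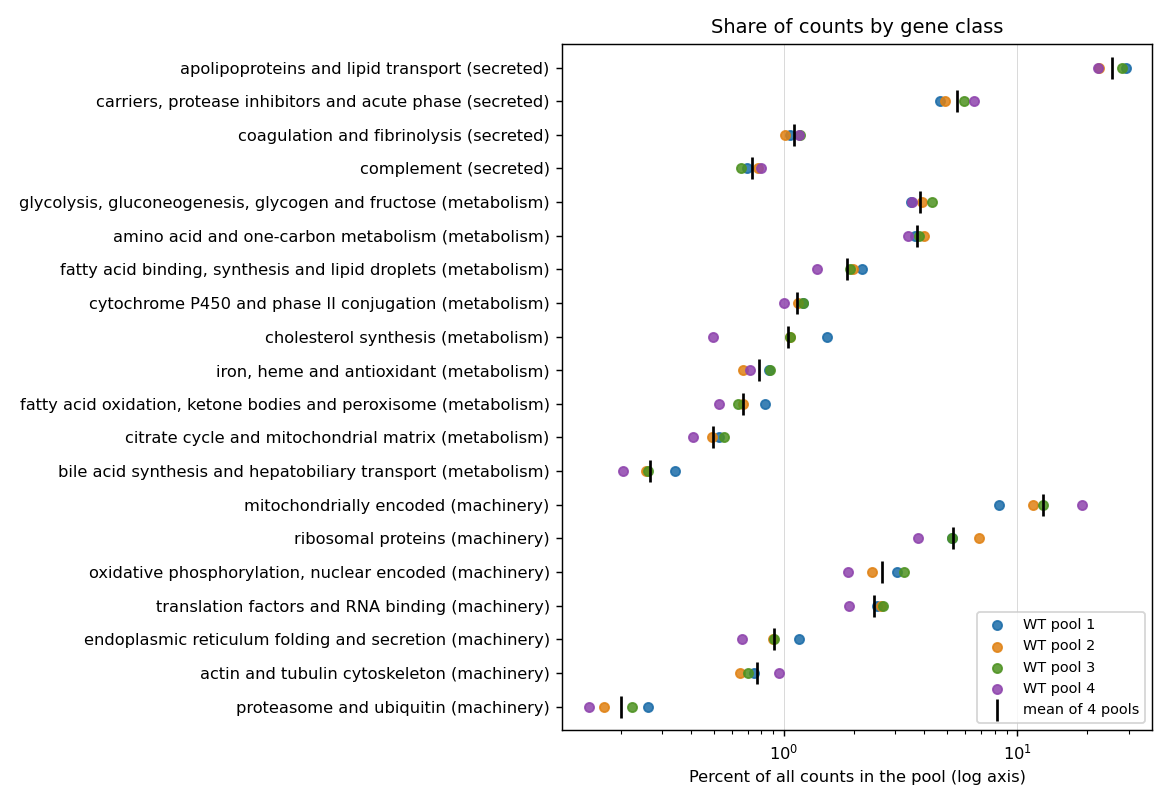
Percent of all counts (log axis) in each gene class of secreted proteins, metabolism and machinery, with 1 point for each WT pool and a black bar for the mean of 4 pools. Apolipoproteins hold 22.1 to 29.2% and mitochondrially encoded genes 8.33 to 18.9%, and the cholesterol synthesis points spread from 0.495 to 1.54%.

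Apolipoproteins and lipid transport proteins (27 genes) were most of the secreted share, at 29.2, 22.4, 28.1 and 22.1%. *apoa1b* held 44.6% of this class, and its 3 leading genes held 91.4%. The third, *apoc1*, an exchangeable apolipoprotein, was at 8015, 10528, 6608 and 5251 CPM, with its highest level in pool 2. *apobb.1*, the apolipoprotein B of the lipoproteins that export triglyceride, was at 5506, 4595, 5066 and 3155 CPM. *afp4*, a gene named for similarity to fish antifreeze proteins and counted here with lipid transport, was at 5848, 3929.8, 5052 and 1906 CPM. All 3 were at their lowest in pool 4.

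The carriers, protease inhibitors and acute phase proteins (53 genes) took 4.67, 4.92, 5.92 and 6.54%, of which *fetub* was 36.0%. *serpina1l*, a paralog of *serpina1*, was at 4283, 4539, 4319.7 and 4908 CPM, and *rbp4*, the plasma carrier of retinol, was at 3861, 3274, 4299.6 and 5587 CPM. Coagulation and fibrinolysis genes (34) took 1.06, 1.01, 1.18 and 1.17%, led by *fgg*, the fibrinogen gamma chain, at 2800.3, 2106, 3181 and 2475 CPM. Plasminogen, *plg*, was at 979, 1028, 1355 and 1949.6 CPM, and *serpinc1*, antithrombin, was at 865, 937, 926 and 1042 CPM. Complement genes (37) took 0.693, 0.779, 0.657 and 0.797%. *c3a.1*, a gene of the central component C3, was at 1492, 1736, 1603 and 2031 CPM, the factor H-like *cfhl4* at 1139, 1453, 1343 and 1598 CPM and *c3a.3* at 1005, 1370.1, 650.4 and 940.1 CPM. Shares of coagulation and complement genes varied by 1.16 and 1.21 times between the highest and the lowest pool.

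Vitellogenins were close to absent. The 6 genes in the table held 0.000561, 0.000344, 0.00300 and 0.000315% of the counts, and *vtg7*, the highest of them, was at 3.89, 2.58, 27.5 and 2.1 CPM. The level in pool 3 was above that in the other pools. *vtg2* and *vtg4* had no count in any WT pool, which at 3 counts allows up to 0.169 to 0.323 CPM.

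Within metabolism, the class with the highest mean share was that of glycolysis, gluconeogenesis, glycogen and fructose genes (62), at 3.51, 3.9, 4.3 and 3.54%. *pck1*, which encodes the cytosolic enzyme that starts gluconeogenesis, was at 1136, 2288, 3094 and 1531 CPM, 2.72 times higher in pool 3 than in pool 1. Amino acid and one-carbon metabolism (96 genes) took 3.67, 4.0, 3.78 and 3.39% of the counts, more than the former class in pools 1 and 2 and less in pools 3 and 4. Its 3 leading genes held 36.3%. *tdo2a*, a tryptophan dioxygenase, was at 2004, 3003, 1389 and 1198 CPM.

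Lipid classes took smaller shares. Genes of fatty acid binding, synthesis and lipid droplets (57) held 2.16, 1.98, 1.93 and 1.39%, of which *fabp10a* was 61.6%. *elovl2*, an elongase of polyunsaturated fatty acids, was at 2920.0, 2963, 2224 and 1241 CPM, and *dbi*, the acyl-CoA binding protein, was at 1999.8, 1426, 1568 and 700.2 CPM. Both were lowest in pool 4. Fatty acid oxidation, ketone body and peroxisome genes (60) held 0.828, 0.670, 0.636 and 0.529%, led by catalase and by *acaa2*, the last enzyme of mitochondrial beta-oxidation, at 906, 552, 784 and 639 CPM. Cholesterol synthesis (25 genes) held 1.54, 1.06, 1.06 and 0.495%, a 3.11-fold range with pool 1 highest and pool 4 lowest. Its leading genes were *cyp51* and *msmo1*, which act on sterol rings, at 3204, 2217, 2843 and 2045 CPM and 2115, 1176, 1785 and 799.9 CPM, and *hmgcra*, the rate-limiting HMG-CoA reductase, at 1521, 1911, 799 and 803 CPM.

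Bile acid synthesis and hepatobiliary transport (32 genes) held 0.343, 0.257, 0.262 and 0.204%. *abcb11b*, the bile salt export pump, was its leading gene, at 1104, 879, 561 and 399 CPM. The uptake transporter *slco1d1* was at 751, 662, 824 and 480.1 CPM, and *slc51a*, a subunit of the basolateral organic solute transporter, was at 735, 327, 442 and 231 CPM. *abcb11b* was highest in pool 1 and lowest in pool 4. *cyp7a1*, the first enzyme of the classic bile acid pathway, was chosen after its values were seen. It was lowest in pool 1 and highest in pool 4, at 4.35, 16.2, 26.7 and 52.2 CPM.

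Cytochrome P450 and phase II conjugation genes (150) were the widest class by number and held 1.21, 1.15, 1.21 and 1.01%. *cyp24a1*, which inactivates vitamin D, was the highest, at 564, 536, 1074 and 1595 CPM. Next came *gstr*, a glutathione transferase, at 913, 707, 629.9 and 713 CPM and *cyp3a65*, a drug-metabolising P450, at 515, 578, 744 and 690.5 CPM. *cyp24a1* was higher in pools 3 and 4 than in pools 1 and 2, whereas *gstr* was highest in pool 1. Iron, heme and antioxidant genes (46) held 0.860, 0.667, 0.876 and 0.718%. *gpx4a*, which reduces lipid peroxides, was at 2186, 1807, 3009 and 3226 CPM, *prdx2*, a peroxiredoxin, at 1239, 1068, 1079 and 853 CPM and *fth1a*, a ferritin heavy chain, at 607, 604, 634 and 384 CPM. Genes of the citrate cycle and mitochondrial matrix (24) held 0.529, 0.493, 0.552 and 0.406%, led by *suclg1*, a subunit of succinyl-CoA synthetase.

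The 13 mitochondrially encoded genes held 8.33, 11.7, 12.9 and 18.9% of the counts (13% ± 4.41, SD, n = 4). This was the class of machinery with the widest range, 2.27 times, and its share was highest in pool 4. Ribosomal proteins (86 genes) had their lowest share there, at 5.28, 6.89, 5.24 and 3.77%, and nuclear-encoded genes of oxidative phosphorylation (124) were at 3.04, 2.39, 3.28 and 1.87%. The leading ribosomal gene *rplp0* was at 3280.1, 3515, 3501 and 2348 CPM, and *slc25a5*, the mitochondrial ADP/ATP carrier, was at 4519.5, 4393, 6466 and 4223 CPM. Translation factors and RNA-binding proteins (119 genes) held 2.52, 2.61, 2.67 and 1.91%, and the elongation factor *eef1a1l1* was at 5400.2, 6359, 6565 and 5113 CPM. Endoplasmic reticulum folding and secretion genes (78) held 1.16, 0.898, 0.912 and 0.659%. Without the mitochondrially encoded genes in the total, secreted proteins took 37.7% of the counts on average.

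Hepatocyte transcription factors (36 genes) together held 0.172, 0.210, 0.155 and 0.170%. *xbp1*, a factor of secretory cells, was at 252, 257, 313 and 256 CPM and *cebpb* at 276, 364, 196 and 138 CPM. *xbp1* varied little, and *cebpb* was lowest in pool 4. Immediate early and stress genes (45) held 0.514, 0.611, 0.452 and 0.436%, with *nupr1b*, a stress-responsive nuclear protein, at 1713, 1048, 830.3 and 593 CPM. Clock genes (26) held 0.0772, 0.111, 0.104 and 0.0596%.

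Markers of other cells that a dissected larval liver could carry were summed for each list. In bulk samples, fewer cells of a type and less RNA per cell cannot be told apart. The 27 exocrine pancreas genes, which encode digestive enzymes, summed to 3149, 17035, 1280.0 and 69865 CPM, a 54.6-fold range, and 26 of them had a count in every pool. In pool 4 they were 6.99% of all counts. Their summed level was 539.6 to 7016 CPM in the overfed libraries, 3056 to 34022 CPM in the EtOH libraries and 415 to 22465 CPM in the *mtm* libraries, so pool 4 was above every other library of the table. The 12 endocrine pancreas genes summed to 4.42, 38.8, 2.31 and 187 CPM, in the same order of pools.

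**Figure D3:**
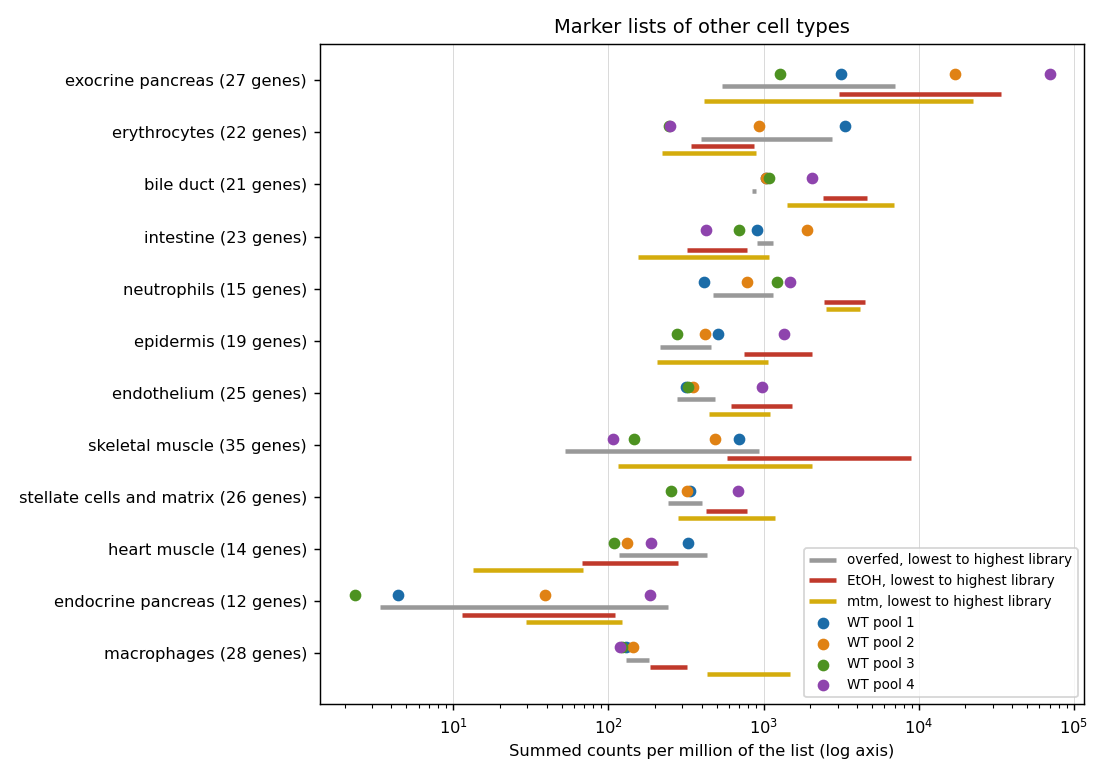
Summed CPM (log axis) of 12 marker lists of other cell types, with 1 point for each WT pool and a line from the lowest to the highest library of the overfed, EtOH and *mtm* groups. Exocrine pancreas runs from 1280 CPM in pool 3 to 69865 CPM in pool 4, and erythrocytes run from 247 CPM in pool 3 to 3326 CPM in pool 1.

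Blood and muscle followed another order. The 22 erythrocyte genes summed to 3326, 937, 247 and 249.8 CPM, and the beta-type globin *hbbe1.3* was at 783, 203, 59.6 and 44.8 CPM. Skeletal muscle genes (35) summed to 692, 490.1, 145 and 107 CPM and heart muscle genes (14) to 324, 131, 108 and 188 CPM. The 3 sums were highest in pool 1. Of members that averaged 1 CPM or more, 16 of 17 erythrocyte and 15 of 25 skeletal muscle genes were highest in pool 1, but 5 of 12 heart genes, and another 5 of these were highest in pool 4. The heart sum was led by *myl7*, a myosin light chain of the heart, at 166, 102, 36.5 and 44.5 CPM. Intestine genes (23) summed to 905, 1903, 690.4 and 428 CPM, highest in pool 2, and the chitinase gene *chia.2* was at 40.3, 377, 3.56 and 2.95 CPM.

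Endothelial genes (25) summed to 318, 350.4, 327 and 971 CPM, with *kdrl*, a receptor for vascular growth factor, at 59.6, 84.6, 70.8 and 229 CPM and *cdh5*, the endothelial cadherin, at 35.6, 37.1, 35.2 and 124 CPM. Pool 4 was high, and the other 3 pools lay close together. Bile duct genes (21) summed to 1030.1, 1044, 1078 and 2039 CPM, stellate cell and matrix genes (26) to 335, 322, 253 and 688 CPM and epidermis genes (19) to 508, 421, 276 and 1358 CPM, each highest in pool 4. These sums count a gene on every list that holds it, so the lists are not separate. With each gene on 1 list only, 16 bile duct genes held 0.0651, 0.0690, 0.0799 and 0.0966% of the counts. The 15 epidermis genes left held 0.0235, 0.0181, 0.0126 and 0.0412%. Macrophage genes (28) summed to 129, 144, 123 and 118 CPM, of which the protease gene *lgmn*, also expressed outside macrophages, was the largest part. The neutrophil list (15) summed to 413, 780.1, 1227 and 1475 CPM, but 76.2, 86.5, 94.3 and 90.8% of it was *pnp5a*, a purine nucleoside phosphorylase, while lysozyme, *lyz*, was at 11.2, 8.17, 0.395 and 0.0656 CPM. The list as a whole and its lysozyme gene therefore ran in opposite orders.

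The pancreas genes entered the total to which all other levels are relative. The whole set of other-cell lists held 1.02, 2.24, 0.509 and 7.56% of the counts. Between pool 4 and the mean of the others, the median gene of at least 10 CPM differed by -0.40 on the log2(CPM + 1) scale, and by -0.14 after TMM scaling, which sets libraries to a common level of most genes. The class difference of pool 4 in cholesterol synthesis is therefore given below relative to that median. Counts of genes highest or lowest in a pool are not adjusted for it, except where TMM scaling is named. With pool 4 left out, exocrine pancreas genes averaged 0.715% of the counts, mitochondrially encoded genes 10.97%, secreted proteins 33.5% and cholesterol synthesis genes 1.22%. The 10 leading genes then held 36.3%.

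Zebrafish carry many duplicated genes, and 46 families with at least 2 members in the table were compared by the share of the family's counts in each member. Salmon divides reads that fit several copies among them, so shares between near-identical copies are uncertain. In 42 of them the members summed to a mean of at least 10 CPM. Over these 42, the leading member was the same in every pool in 35, held over 90% of the family in 17, over 99% in 10 and under 60% in 10, with a median of 82.6%.

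**Figure D4:**
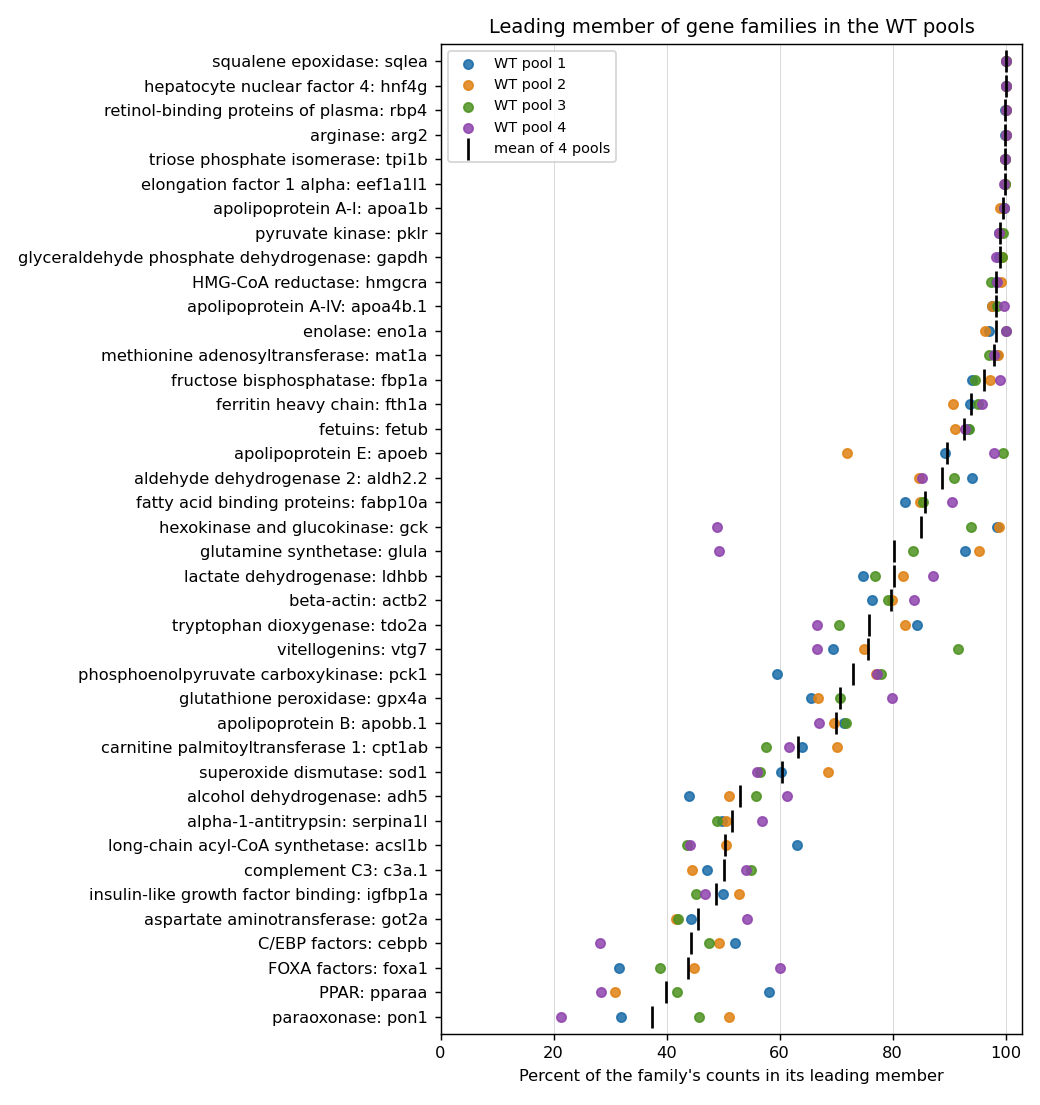
Percent of a family's counts in its leading member, for the families of at least 10 CPM that are reported here, with 1 point for each WT pool and a black bar for the mean of 4 pools. Most families at the top of the plot lie near 100% in every pool, while glucokinase (*gck*) and glutamine synthetase (*glula*) lie near 49% in pool 4 alone.

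Some abundant families were carried by 1 copy. *apoa1b* held 99.7, 99.1, 99.7 and 99.7% of the apolipoprotein A-I counts, and *apoa1a* averaged 518 CPM. *pklr* held 98.8, 99, 99.5 and 98.9% of pyruvate kinase, and *gapdh* held 98.9, 99.4, 99.4 and 98.4% of its pair. *rbp4*, *tpi1b* (triose phosphate isomerase) and *arg2* (arginase) held over 99% in each pool. *eef1a1l1* likewise held over 99% of elongation factor 1 alpha. These were also the leading copies in the overfed, EtOH and *mtm* libraries, although *pklr* averaged 64.4% of pyruvate kinase in *mtm*.

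Other abundant families were divided. *serpina1l* held 49.8, 50.6, 48.9 and 56.9% of alpha-1-antitrypsin, against *serpina1*, so neither copy led in all pools. *c3a.1* held 47.2, 44.4, 54.9 and 54.1% of the C3 genes. *igfbp1a* held 50, 52.8, 45.3 and 46.9% of the insulin-like growth factor binding proteins, with *igfbp1b* next at 2275 CPM. *apobb.1* held 71.4, 69.6, 71.8 and 67.1% of apolipoprotein B, and *apoba* came next at 2025, 1904, 1932 and 1526 CPM. In the last 3 families the leading copy was the same in all pools.

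In other families the balance itself differed between pools. *gck*, the glucokinase of liver, held 98.4, 98.9, 93.9 and 49% of the hexokinase family, the remainder being *hk1* and *hk2*. *glula*, a glutamine synthetase, held 92.8, 95.3, 83.6 and 49.3% against *glulb*, and the pair changed places in pool 4, where *glula* was at 78.1 CPM and *glulb* at 80.4 CPM. *tdo2a* held 84.4, 82.1, 70.5 and 66.6% against *tdo2b*. *apoeb* held 89.2, 71.9, 99.5 and 97.9% of apolipoprotein E, lowest in pool 2, where *apoea* was at 139.9 CPM. The first 3 of these families also had a smaller leading share in the EtOH and *mtm* libraries, where *gck* averaged 21.7 and 10.9% and *glula* 45.2 and 42.3%. *hmgcra* held 98.4, 99.2, 97.4 and 98.5% of HMG-CoA reductase in the WT pools, against averages of 72.8% in EtOH and 34.3% in *mtm*. The leading member was the same as in WT in 37 families in overfed, 33 in EtOH and 30 in *mtm*. No test was made on these shares.

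The spread between the 4 pools was measured as the SD of log2(CPM + 1) for the same 5583 genes. The mean of 10 CPM that admits a gene covers all 4 pools, so a gene high in 1 pool alone can enter through that pool. The median SD was 0.49, with quartiles of 0.33 and 0.69. Counting error alone gives an SD of 0.15 at 10 CPM in the smallest library, and a smaller one at higher levels. Of all 5583 genes, at any level, 199 had an SD below that value. They were not compared with the counting error at their own level. Median SDs over the same genes were 0.30 in overfed, 0.37 in EtOH and 0.53 in *mtm*. The genes were admitted by their mean in WT, so these medians are not on equal terms with that of WT. The common biological coefficient of variation, a spread relative to the mean, was 0.46 in WT and 0.37 in overfed. It was 0.53 in EtOH and 0.63 in *mtm*. Whether EtOH libraries varied less or more than WT pools thus depended on the measure. Between the WT pools, an SD above 1 was found for 416 genes, 7.45% of those measured. Leaving out pool 4 left 214 such genes and a median SD of 0.39, and leaving out pool 3 gave 688.

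**Figure D5:**
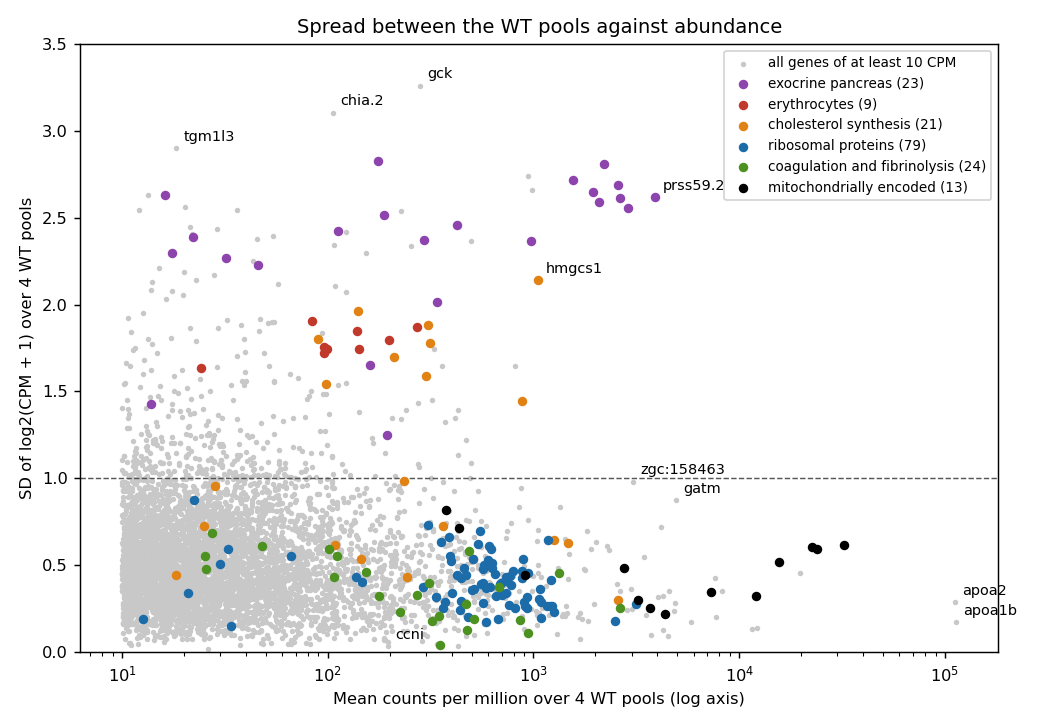
SD of log2(CPM + 1) over the 4 WT pools against mean CPM (log axis), with 1 grey point for each gene of at least 10 CPM and 6 gene classes in colour, the number of genes plotted in brackets. The dashed line marks an SD of 1, above which lie 23 of 23 exocrine pancreas genes, 9 of 9 erythrocyte genes and 9 of 21 cholesterol synthesis genes.

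Of the 416 genes, 178 were highest in pool 1 (42.8%), 105 in pool 2 (25.2%), 20 in pool 3 (4.81%) and 113 in pool 4 (27.2%). The shares of all 5583 genes were 36.0, 36.3, 11.1 and 16.6%. Pool 4 was the lowest for 254 of the 416 (61.1%), beside 50.9% of all 5583 genes. The order pool 1, 2, 3, 4 from high to low was the commonest, with 97 genes (23.3%, against 12.3% of all genes). Another 42 (10.1%, against 3.53%) had the order 4, 2, 1, 3 of the summed pancreas list.

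Digestive enzyme genes made up much of the ranking, with 10 exocrine pancreas genes among the 20 of largest SD. All 23 exocrine pancreas genes of at least 10 CPM had an SD above 1, with a median of 2.46, and all were highest in pool 4. Over all genes of at least 10 CPM, 7.45% had an SD above 1 and 16.6% were highest in pool 4. Without pool 4, 21 of the 23 had an SD above 1 and the median was 1.89. The mean of 10 CPM includes pool 4, and without it *zgc:92511*, *ins*, *gcga* and *sst1.1* fall short of that minimum. The exocrine pancreas genes *zgc:92745*, *zgc:112302* and *si:dkey-57c15.4* also fall short of it without pool 4. The counts of pancreas genes that are high in pool 4 are thus in part set by this choice. Among the 20 genes with the largest SD were the carboxypeptidases *cpa1* and *cpa5*, the elastases *ela2* and *ela2l*, the trypsins *prss1*, *prss59.1* and *prss59.2* and the chymotrypsinogens *ctrb1* and *zgc:112160*. *prss59.2* was at 532, 2563, 196 and 12370.4 CPM and *cpa1* at 17.6, 122, 5.87 and 556 CPM. The hormone genes *ins* (insulin), *gcga* (glucagon) and *sst1.1* (somatostatin) were in the same 20, at 0.198, 9.36, 0 and 43.9 CPM, 1.32, 8.39, 0.339 and 71.1 CPM and 0.132, 9.68, 0.113 and 38.7 CPM. The astacin-type gene *c6ast4*, which is on no list, was at 115, 612, 38.5 and 2988 CPM, in the same order of pools. *LOC562139*, also on no list, was at 166, 1095, 43 and 2622 CPM, and the elastase-like *zgc:92511* was at 0.396, 7.42, 0.169 and 56.9 CPM.

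The gene with the largest SD (3.26) was *gck*, which commits glucose to storage and glycolysis after a meal. Its level was 403, 602, 117 and 3.15 CPM, 191 times higher in pool 2 than in pool 4. Over the other groups it was at 10 to 1928 CPM in the overfed, 0 to 36.3 CPM in the EtOH and 0.0814 to 21 CPM in the *mtm* libraries. *apoa4a*, an apolipoprotein A-IV gene, was at 63.9, 45.2, 36.1 and 0.459 CPM and the kinase gene *styk1b* at 527, 332, 36.3 and 12.2 CPM. These 3 genes were all lowest in pool 4. Without that pool their SDs were 1.23 for *gck*, 0.41 for *apoa4a* and 2.04 for *styk1b*, and the gene with the largest SD was *tgm1l3*, at 3.42. *chia.2* and *tgm1l3*, a transglutaminase gene, were high in pool 2, the latter at 0.198, 72.4, 0.226 and 0.590 CPM.

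Over the 4 pools, cholesterol synthesis was the metabolic class with the largest median SD. Of 21 genes of at least 10 CPM, 9 (42.9%) had an SD above 1, 19 were highest in pool 1 and 19 were lowest in pool 4. Without pool 4 none had an SD above 1, and the median SD of the class was 0.40 in place of 0.95, beside 0.385 for all 5583 genes. The class then no longer led the metabolic classes. Fatty acid binding, synthesis and lipid droplets had a median of 0.48 and iron, heme and antioxidant genes 0.44. After TMM scaling 11 of the 21 were highest in pool 1, 8 in pool 3 and 16 were lowest in pool 4. The class median of pool 4 against the mean of the others was -1.30 relative to all genes by CPM and -1.31 by TMM. By CPM, 2012 of all 5583 genes were highest in pool 1 and 2839 lowest in pool 4. By TMM these numbers were 1102 and 2077, with 1547 highest in pool 3. *hmgcs1*, which makes HMG-CoA, was at 2230.2, 1128, 784 and 72.5 CPM and *fdps*, farnesyl diphosphate synthase, at 1485, 865, 996 and 154 CPM. *mvda*, the mevalonate decarboxylase, was at 285, 101, 164 and 11.7 CPM and *lss*, lanosterol synthase, at 332, 261, 221 and 25.2 CPM. All 4 were highest in pool 1 and lowest in pool 4, with a wider range than the class as a whole, whereas *cyp51* had a narrower one. *fasn*, fatty acid synthase, and *acaca*, acetyl-CoA carboxylase, which make fatty acids from the same precursor, were at 283, 114, 85.6 and 8.66 CPM and 203, 138, 87.7 and 6.95 CPM. *hmgcs1* averaged 3235 CPM in overfed, 31.9 CPM in EtOH and 24.9 CPM in *mtm* libraries.

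The share of counts in cholesterol synthesis genes was 0.495 to 1.54% in WT, 1.66 to 2.88% in overfed, 0.0628 to 0.0893% in EtOH and 0.0521 to 0.103% in *mtm* libraries. The WT pools lay between the overfed libraries and those of the other groups, with no overlap. Apolipoproteins were at 22.1 to 29.2% in WT and at 27.3 to 31.0%, 9.83 to 15.3% and 4.97 to 17.5% in overfed, EtOH and *mtm*. No test was made on class shares.

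Erythrocyte genes varied in concert, with 9 of 9 above an SD of 1 and all 9 highest in pool 1. Of 13 endothelial genes, 12 were highest in pool 4 with either scaling, and 5 had an SD above 1, or none without pool 4. Ribosomal protein genes varied little, with a median SD of 0.39 and none above 1, yet 68 of 79 were highest in pool 2 and 75 were lowest in pool 4, or 46 and 57 after TMM scaling. Nuclear-encoded oxidative phosphorylation genes were lowest in pool 4 in 79 of 101 cases, and in 51 after TMM scaling. For comparison, of all 5583 genes 2012 were highest in pool 1, 2027 in pool 2 and 926 in pool 4, and 2839 were lowest in pool 4. After TMM scaling 1496 of all genes were highest in pool 2 and 1438 in pool 4, and 2077 were lowest in pool 4. Coagulation and complement genes had median SDs of 0.35 and 0.31, below the median of all genes. After TMM scaling these were 0.42 and 0.39, beside 0.45 for all genes, and 14 of 24 and 14 of 23 were highest in pool 4. Whether the pancreas share of pool 4, or the share of mitochondrially encoded transcripts, has a part in these differences was not tested.

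Among 914 genes that averaged 100 CPM or more, whose median SD was 0.43, the steadiest by CPM were not the usual reference genes. *ccni*, a cyclin gene, was at 197, 199.7, 199 and 189.7 CPM and *lcn15*, a lipocalin gene, at 420.0, 427, 426 and 444 CPM. *f7i*, a gene of the coagulation factor VII family, was at 345, 362, 339.6 and 351 CPM and *dap* at 327, 354, 336 and 339 CPM. The SDs of these 4 were 0.03, 0.03, 0.04 and 0.05. The next 6 were *akr7a3* (an aldo-keto reductase), *ppib* (a cyclophilin of the endoplasmic reticulum), *c8a* (complement C8 alpha), *romo1*, *ivd* (isovaleryl-CoA dehydrogenase) and *LOC108179091*, with SDs of 0.06 to 0.08. This ranking held for CPM only. After TMM scaling the SDs of these 10 genes were 0.17 to 0.27, and none of them was among the 10 steadiest, which were led by *sar1b*, a GTPase of vesicle transport, with an SD of 0.03. *f7i* had an SD of 0.19 in overfed, 0.71 in EtOH and 0.69 in *mtm* libraries, and *ccni* had 0.21, 0.15 and 0.35. Both were picked for a small SD in the WT pools, so larger SDs elsewhere follow in part from that choice. For comparison, *actb2* and *gapdh* had SDs of 0.24 and 0.35 over the WT pools.

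Genes that varied between the WT pools also varied in other groups more often than most genes. Of the 416, 128 (30.8%) had an SD above 1 in overfed, 95 (22.8%) in EtOH and 141 (33.9%) in *mtm*, against 4.28, 4.14 and 11.9% of all 5583 genes. These are descriptions of the same libraries, and no test was made.

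The 50 most abundant WT genes were then followed into the other groups with edgeR's quasi-likelihood test across all 11489 genes that passed the filter on low counts, with Benjamini-Hochberg adjustment. All 50 passed that filter, and 42, 36 and 33 of them were among the 50 most abundant of the overfed, EtOH and *mtm* groups. These genes were chosen by their level in the same WT pools that enter each test, so the split between higher and lower calls is set in part by that choice. In overfed larvae none of the 50 was called, beside 0 of 11489 genes (0%), with 3 of the 50 and 493 of all (4.29%) at an unadjusted p under 0.05, while DESeq2 called 0 of the 50 and 24 of all. *afp4* had the smallest p of the 50, at 9377 to 13400.1 CPM in overfed libraries (log2 fold change 1.5 ± 0.45 SE, adjusted p = 0.912).

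In EtOH larvae 10 of the 50 were called (20.0%), 3 higher and 7 lower, beside 7.35% of all genes (4.66% higher and 2.7% lower). *cyp51*, which was at 2045 to 3204 CPM in the WT pools, was at 54.6 to 164 CPM in EtOH (log2 fold change -4.45 ± 0.42 SE, adjusted p = 2.93e-05). *elovl2* was at 154 to 329 CPM, against 1241 to 2963 CPM in WT (log2 fold change -3.39 ± 0.38 SE, adjusted p = 6.86e-05). *apoc2*, the activator of lipoprotein lipase, was at 460.1 to 1053 CPM, against 2291 to 3719 CPM (log2 fold change -1.95 ± 0.42 SE, adjusted p = 0.00885). These 3 were named as the called genes of the 50 with the largest falls, so ranges apart from those of WT follow in part from that choice. The genes *igfbp1b* and *igfbp1a*, whose products bind insulin-like growth factors, were at 13812 to 18878 CPM and 6202 to 10986 CPM in EtOH, against 1155 to 2858 and 1788 to 3006 CPM (log2 fold change 2.85 ± 0.43 SE, adjusted p = 0.000615, and log2 fold change 1.83 ± 0.42 SE, adjusted p = 0.012). *actb2*, a beta-actin, was higher by a log2 fold change of 0.94 ± 0.27 SE (adjusted p = 0.0417). That call was lost in 11 of 14 alternatives, and the call of *igfbp1a* in 3 of 14. Without WT pool 2 or without EtOH replicate 1, 6 of the 50 were called, beside 490 and 494 of all genes. With only the compared groups in the fit 20 of the 50 were called. The number over all genes was then 770, below the 845 of the main fit.

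In *mtm* larvae 16 of the 50 were called (32.0%), 3 higher and 13 lower, beside 18.7% of all genes (10.1% higher and 8.59% lower). Whether the 3 resubmitted libraries hold RNA of the same pools as the other 3 is not stated, so the number of separate *mtm* pools may be smaller than 6 and these p-values too small. Across genes, original and resubmitted libraries of the same number correlated at 0.76 to 0.88, and all other pairs of *mtm* libraries at 0.73 to 0.93. With the resubmitted libraries left out, 14 of the 50 and 1639 genes in all were called. *cyp51* was at 14.2 to 44.6 CPM (log2 fold change -6.84 ± 0.40 SE, adjusted p = 7.11e-08), *gatm* at 24.9 to 327 CPM (log2 fold change -5.45 ± 0.67 SE, adjusted p = 3.94e-05) and *apoa4b.1*, an apolipoprotein A-IV gene, at 186 to 897 CPM (log2 fold change -3.82 ± 0.45 SE, adjusted p = 3.11e-05). Their WT ranges were 2045 to 3204, 1976 to 7961 and 3131 to 4889 CPM. These 3 were likewise named for the largest falls, so ranges apart from those of WT follow in part from that choice. Both leading genes were lower as well, *apoa1b* at 23028 to 89443 CPM (log2 fold change -1.74 ± 0.43 SE, adjusted p = 0.00897) and *apoa2* at 12334 to 60330.0 CPM (log2 fold change -2.64 ± 0.48 SE, adjusted p = 0.000944). *igfbp1b* was at 10138 to 20891 CPM (log2 fold change 2.36 ± 0.41 SE, adjusted p = 0.000756), *igfbp1a* at 5752 to 12494 CPM (log2 fold change 1.46 ± 0.40 SE, adjusted p = 0.0171) and *actb2* at 4032 to 11898 CPM (log2 fold change 1.25 ± 0.26 SE, adjusted p = 0.00285). The call of *igfbp1a* was lost in 4 of 17 alternatives, 1 of them without the resubmitted libraries, and that of *actb2* in 1. Without *mtm* replicate 1, 26 of the 50 were called, beside 1441 to 2435 of all genes over the fits with 1 library left out.

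DESeq2 called 15 of the 50 against EtOH and 22 against *mtm*, beside 1558 and 2856 of all 11489 genes. Without WT pool 4 the number called was 0, 9 and 17 against overfed, EtOH and *mtm*. Of all genes, 0 and 811 were then called against overfed and EtOH. Against *mtm*, 1441 to 2435 of all genes were called over the fits with 1 library left out. The median log2 fold change of the 50 genes was -0.26 in overfed, 0.06 in EtOH and -0.67 in *mtm*, beside -0.04, -0.03 and 0.01 over all genes tested. The 6 exocrine pancreas genes among the 50 were called in none of the 3 comparisons. Their log2 fold changes in EtOH ran from -0.10 to 0.77, with SEs of 1.71 to 1.84, although the mean CPM of all 6 was lower in EtOH than in WT. For *prss59.2* these means were 2675 and 3915 CPM. In overfed the 6 ran from -2.95 to -2.65, with SEs of 1.54 to 1.59. In *mtm* they ran from -2.23 to -0.62, with SEs of 1.48 to 1.54. All 3 comparisons used the same 4 WT pools.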

How the data were processed

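RNA was measured by RNA-Seq in pools of dissected zebrafish livers. Per the methods and the submitters' processing notes, the authors checked reads with FastQC (version 0.11.09), trimmed them with Trim Galore (version 0.6.6) and estimated transcript counts with Salmon on GRCz11. The deposited values are whole-number estimated counts per gene, with no scaling and no filter, from 18 libraries of 40 livers and, in a separate table, from libraries of 20 livers. Of 19793 genes, 15 are listed under dates and hold at most 0.0261% of the WT counts. Symbols were looked up in a RefSeq gene table, where 18280 matched.

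CPM was computed from each library total (WT 9297847 to 17717723). The spread is the SD of log2(CPM + 1), with a pseudocount of 1 CPM, over genes that averaged 10 CPM or more. Comparisons used edgeR (version 4.0.16, R 4.3.3) quasi-likelihood tests on genes with at least 5 reads in at least 80% of the 18 libraries, TMM scaling, the replicate number as covariate as in the authors' model, Benjamini-Hochberg adjustment and a limit of 0.05. The test was run on simulated counts with the same spread for all genes and groups. That run does not cover groups of unequal spread, such as these. DESeq2 (version 1.42.0), other filters, scalings, pseudocounts and sample sets were alternatives. Python 3.11.15 with pandas 2.3.3 was used for the rest. Same-numbered replicates came from no stated shared source, so the numbers entered the fit as a covariate and were not otherwise read as pairs. The resubmitted *mtm* libraries entered with the number in their labels.

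Named genes were the 30 of highest mean CPM, up to 3 leading genes of each list and those with the widest range in lists that varied most, the leading and next member of each family, the 20 with the largest SD, the 10 with the smallest SD at 100 CPM or more, and, of the 50 most abundant, up to 3 called in each direction with the largest fold change. Some genes that this rule names are not reported here. Members and lists were chosen with earlier results of these data known. Sums of counts and limits for 0 counts cover counting error only.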

Additional observations from a re-analysis of the deposited data

Results flagged for a closer look

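Of 111 results tested in the 4 WT pools (class shares, gene levels and family shares), 10 had 1 pool far from the other 3, with a gap above Dixon's 95% limit for 4 values. For independent, normally distributed values chance would give about 1 in 20. These results overlap and share the same 4 pools and totals, so that rate is no standard for them. In 2 of the 10 the other 3 pools were tied at 100% of a family, which fixes the ratio, so 8 rested on values that were free to differ. The outlying pool was pool 1 in 4, pool 2 in 1, pool 3 in 3 and pool 4 in 2 of them.

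Vitellogenins held 0.00300% of the counts in pool 3, against 0.000315 to 0.000561% in the others, and this rested on *vtg7* at 27.5 CPM. Endothelial genes held 0.0971% in pool 4, against 0.0318 to 0.0350%. *slc25a5*, the ADP/ATP carrier, was at 6466 CPM in pool 3, against 4223 to 4520 CPM. *ND2* was at 3418 CPM in pool 1, against 4603 to 4687 CPM.

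Family shares stood apart in 6 cases. *gck* was 49.0% of the hexokinase family in pool 4, against 93.9 to 98.9%, and *pck1* was 59.5% of its pair in pool 1, against 77.1 to 78.0%. The other 4 lay within 1 percentage point of the remaining pools. *apoa1b* was 99.1% of apolipoprotein A-I in pool 2, *tpi1b* was 99.87% of triose phosphate isomerase in pool 3, *arg2* was 99.89% of arginase in pool 1 and *rbp4* was 99.99% of its pair in pool 1. The last 2 are the tied cases, and rested on 1 count of *arg1* and 6 counts of *rbp4l*.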

How the results depend on the processing

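Over 102 results, 797 of 877 alternative values were labelled the same. That label meant a call kept, a count within a set ratio of the main count, or a share within 1 SD between pools. Only fold changes could be labelled reversed, and none was. Leaving out 1 pool cannot move a mean class or family share by 1 SD, so those values could not fail where the SD was above 0. *hnf4g* and *sqlea*, a squalene epoxidase gene, held 100% of their families in every pool, with an SD of 0. Unchanged values of these 2 shares were therefore labelled as moved. Without *apoa1b* in the total, the share of the 10 leading genes was 30.4%, that of the 100 leading genes 54.6% and the secreted share 24.2%. Without mitochondrially encoded genes the secreted share was 37.7%. Genes with an SD above 1 numbered 212 with a pseudocount of 5 CPM, 829 at a minimum of 1 CPM, 135 at 50 CPM, and 214 (without pool 4) to 688 (without pool 3) when 1 pool was left out. Of the 50 most variable genes, 28 were shared with a minimum of 50 CPM, and 30 (without pool 4) to 45 with 1 pool left out.

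Calls against overfed larvae numbered 24 with DESeq2, 2 with only the compared groups, and 0 to 3 with 1 library left out (3 without WT pool 1). Against EtOH they numbered 1558 with DESeq2, 370 with an absolute log2 fold change above 2, and 428 (without WT pool 1) to 811, with 490 without WT pool 2 and 494 without EtOH replicate 1. Against *mtm* they numbered 2856 with DESeq2, 863 with that fold change and 1441 to 2435 with 1 library left out. With only the compared groups, 770 and 1469 genes were called against EtOH and *mtm*. Of the 50 abundant genes, the calls against EtOH were 15 with DESeq2, 3 with that fold change, 20 with only the compared groups and 6 to 9 with 1 library left out, and those against *mtm* were 22 with DESeq2, 14 without the resubmitted libraries and 15 to 26 with 1 library left out, with 26 without *mtm* replicate 1.

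Whether the replicate numbers pair the libraries cannot be told from these values. Correlations of same-numbered deviations ran from -0.23 to 0.34, and libraries of different numbers were not compared in this way. Without the replicate block, 0, 892 and 2256 genes were called against overfed, EtOH and *mtm*, and 0, 9 and 19 of the 50. Among single genes the call of *actb2* against EtOH was lost without the block.

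Alternatives for the number of genes with an SD above 1 and for the 50 abundant genes, the *mtm* comparison without the resubmitted libraries, spreads by class without pool 4, and totals without pancreas or other-cell genes, were chosen after seeing the data. Counts per kb of coding length were not run, since no coding lengths were used here. Depth limits single genes at low levels, and 4 pools limit every SD.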

Other observations

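Some single genes of the endoplasmic reticulum, the nucleolus and the mitochondrion were lowest in pool 4. They were chosen for that after their values were seen, with no test, and 50.9% of all 5583 genes of at least 10 CPM were also lowest there, so they say nothing of these compartments as a whole. Of the endoplasmic reticulum, the chaperone *hspa5* was at 795, 428, 354 and 85.9 CPM, *manf*, a secreted factor that rises when unfolded protein accumulates, was at 204, 68.1, 95.8 and 9.32 CPM and the co-chaperone *dnajb9b* was at 53.2, 14.8, 24.5 and 3.08 CPM. By contrast the chaperones *ppib* and *pdia3* of the same compartment were at 301, 294, 281 and 273 CPM and 479.9, 506, 439 and 448 CPM, close to even over the pools by CPM. Of the nucleolus, where ribosomes are assembled, *gar1* was at 84.9, 64.7, 61.6 and 7.35 CPM, *gnl3* at 91.7, 48.1, 51.8 and 11.9 CPM, *nat10* at 31.3, 15.4, 20.2 and 3.41 CPM, *rrp9* at 26.9, 8.6, 20.1 and 3.48 CPM and *nifk* at 47.2, 17.9, 24.8 and 7.68 CPM. The mitochondrial chaperonin *hspd1* was at 439, 419.7, 377 and 54.5 CPM.

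A few genes that were highest in pool 4, as were 16.6% of all 5583, were likewise chosen after their values were seen, with no test. *igfbp7* was at 15.3, 5.81, 35.5 and 148 CPM, *oit3* at 5.15, 4.95, 15.1 and 92.5 CPM and *gpr182* at 6.0, 1.61, 9.09 and 38.6 CPM, and *stab2*, a scavenger receptor of sinusoidal cells, was at 1.98, 4.95, 3.56 and 5.77 CPM. The keratin *krt91* was also highest there, at 191, 143, 129 and 644 CPM, and the keratin *krt4* was at 198, 226, 134 and 619.9 CPM. *ech1* was at 46.1, 0, 19.3 and 19.8 CPM, with no count in pool 2 alone, and *and2* at 2.9, 7.53, 45 and 0.394 CPM.

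A second set of livers labelled WT was measured in another way, and its values are given side by side with no test. These were 20-liver pools of 6 dpf larvae labelled as WT siblings of *abcb11b* mutants, extracted, prepared and sequenced separately. The 3 columns for them carry DMSO in their names, which the methods of that experiment do not mention, so they may not be untreated. Of the 3 columns, 2 held identical values in every gene and were counted as 1 library. This left 2 libraries of 10741267 and 10816295 counts. The gene that RefSeq tables name *ABCB11* was at 0 to 0.647 CPM in these libraries and at 5.94 to 13.2 CPM in those labelled as mutant, which goes against the labels if that gene is the one targeted, so they are named here by label only. In the libraries labelled WT sibling, *fetub* was at 52518 and 65266 CPM, *apoa2* at 23228 and 21832 CPM and *fabp10a* at 10001 and 9441 CPM. It took 48 and 45 genes to reach 50% of the counts. Apolipoproteins held 5.25 and 3.89% there, carriers, protease inhibitors and acute phase proteins 12.9 and 15.4%, cholesterol synthesis genes 0.154 and 0.0789% and exocrine pancreas genes 0.0143 and 0.159%. These classes held other numbers of genes than above, with 20 apolipoprotein genes against 27 and 56 carrier genes against 53. Cholesterol synthesis had 22 genes against 25, and no level of *apoa1b* is given here for these libraries. The class shares of the 2 sets are therefore not on equal terms. Of the 50 most abundant genes of the 40-liver WT pools, 39 could be paired by symbol, and 25 of these were among the 50 most abundant in the libraries labelled WT sibling. Of the 50 most abundant in the latter libraries, 18 had no pair. Age, number of livers, kit, sequencing site, the genes listed and perhaps DMSO differ between the 2 sets and cannot be told apart.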
